A study of Mus musculus with 16 samples.

Results

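The 10 genes described here carry long-chain fatty acids into the cell and on to triglyceride: Cd36, Fabp2, Fabp4, Fabp5, Slc27a1, Slc27a2, Slc27a4, Dgat1, Dgat2 and Mttp. They were taken by gene symbol from a count table of 54392 genes, and all 10 symbols were present once. Poly(A) RNA was sequenced from colonocytes, the epithelial cells of the colon, of C57BL/6 mice that ate 1 of 2 diets for 3 weeks. The fish oil/pectin diet, which joins n-3 fatty acids with a fermentable fibre, had 7 libraries. The corn oil/cellulose diet, rich in n-6 fatty acids and holding a fibre that gut bacteria ferment little, had 9 libraries. Fat and fibre changed together, so their separate effects cannot be told apart. The labels give neither the age nor the sex of the mice. The labels name the source as colonocyte, whereas the extraction protocol speaks of RNA of the colon. They number the libraries as biological replicates without saying that each is a separate mouse. The p-values below therefore set the difference between diets against the spread between libraries only, which may be technical.

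Fatty acids enter a cell across the membrane with the help of CD36 and of the SLC27 family of fatty acid transport proteins, which also link fatty acids to coenzyme A. Small cytosolic fatty acid binding proteins (FABPs) then hold them in solution. The acyltransferases DGAT1 and DGAT2 add the last acyl chain of a triglyceride, and MTTP, the microsomal triglyceride transfer protein, loads lipid onto apolipoprotein B in the endoplasmic reticulum. The absorptive cells of the small intestine are best known for this route, since most dietary fat is taken up there before the contents reach the colon.

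The libraries held 16212831 to 19512755 counts with fish oil/pectin and 13996288 to 19331984 with corn oil/cellulose. Library names came in 2 forms, with or without the prefix GC, and the prefix marked 5 fish oil/pectin and 5 corn oil/cellulose libraries, leaving 2 fish oil/pectin and 4 corn oil/cellulose libraries without it. What the prefix stands for is not given, so the form was a term of the model. For those of the 10 genes that could be tested, the effect is also given within each form. Effects of other genes are over all libraries unless a form is named. Y-linked counts put 3 of 7 fish oil/pectin and 6 of 9 corn oil/cellulose libraries as male, and all 6 libraries without the prefix were male. All 10 colonocyte identity genes looked for, among them Epcam, Vil1 and Slc26a3, were detected, and their summed level was 10368 to 16850 CPM (counts normalised to library size with TMM factors) with fish oil/pectin and 11124 to 14402 CPM with corn oil/cellulose. Of these 10 genes 3 (Krt20, Cdx1 and Cdx2) were higher with fish oil/pectin and 0 lower in edgeR's quasi-likelihood test. Unadjusted, 0 of them were lower at a p under 0.05. The called share of 30% lay below that of all 14321 genes tested, 41.7% at an adjusted p under 0.05 (21.7% higher, 20.1% lower).

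Of the 10 genes 3 rose with fish oil/pectin: the binding proteins Fabp2 (1.51-fold) and Fabp5 (1.45-fold), and the triglyceride synthase Dgat1 (1.14-fold). Slc27a1, Slc27a2, Slc27a4, Dgat2 and Mttp did not pass the test, and Cd36 and Fabp4 were too low to be tested. Thus 3 of 8 tested genes (37.5%) were called at an adjusted p under 0.05, where 41.7% of all 14321 genes tested were called in either direction, with 21.7% called higher and 20.1% called lower. The share was near that background. None of the 8 was lower by edgeR's quasi-likelihood test, by its unadjusted p under 0.05, by DESeq2 or by limma voom (0 each). Their median log2 fold change was 0.13, against -0.0043 for all genes tested, with 6 of the 8 above 0. For every gene the ranges of the 2 diets overlapped, as they did for all but 3.36% of the genes tested.

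**Figure D1:**
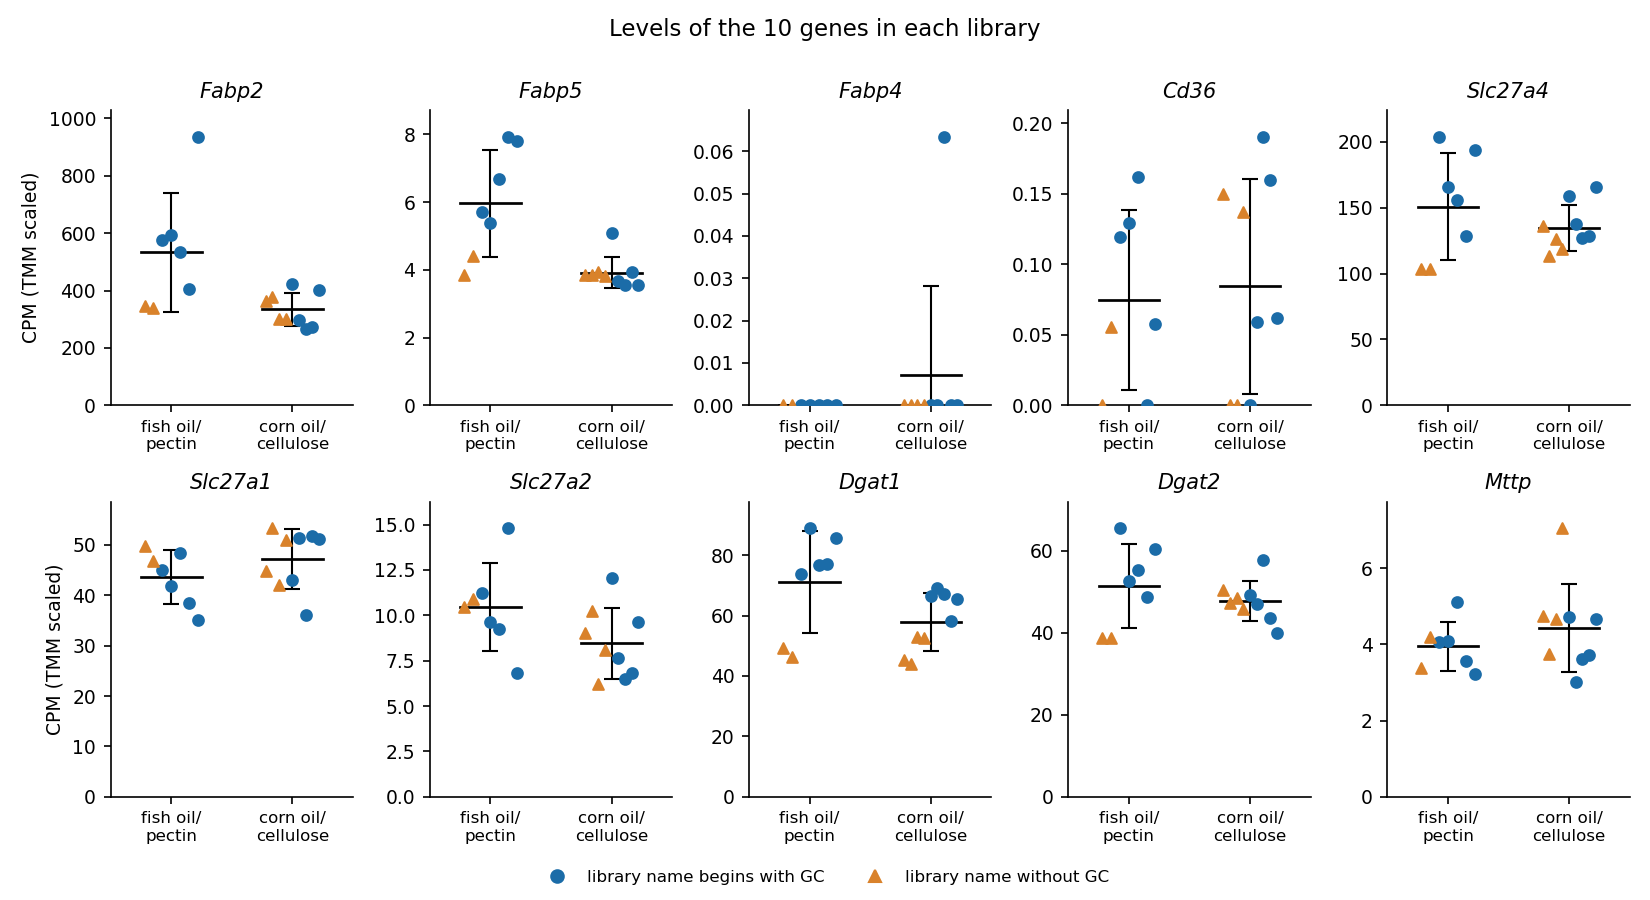
Levels of the 10 genes in every library, in CPM with TMM scaling on a linear axis from 0, with fish oil/pectin (n = 7) left of corn oil/cellulose (n = 9); bars are the mean and SD over libraries, circles are libraries with the GC prefix and triangles those without it. The highest points for Fabp2, Fabp5 and Dgat1 are GC-named fish oil/pectin libraries, while Cd36 lies under 0.2 CPM everywhere and Fabp4 is at 0 in all but 1 library.

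Levels of the genes spanned several orders of magnitude. Compared per length (CPM per kilobase of the principal transcript, over 16 libraries), Fabp2 stood first with 436 ± 177 (SD), and it exceeded the next gene in 16 of 16 libraries. Slc27a4 followed with 35.0 ± 7.36 and Dgat1 with 33.7 ± 7.64 CPM per kilobase, and these neighbours were not separated, Slc27a4 being higher in 10 of 16 libraries. Below them came Dgat2 with 21.8 ± 3.36, Slc27a1 with 16.3 ± 2.07, Fabp5 with 4.88 ± 1.51, Slc27a2 with 3.20 ± 0.795 and Mttp with 1.07 ± 0.245 CPM per kilobase. Dgat1 exceeded Dgat2 in 16 of 16 libraries, Dgat2 exceeded Slc27a1 in 14, and the further steps down to Cd36 held in all 16. With the length of all annotated exons in place of the principal transcript, Fabp5 (1.35) fell behind Slc27a2 (2.49), so the order of that pair rests on the length used. Slc27a4 (32.1) and Dgat1 (20.8) then lay further apart, so their closeness rests on it too.

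Fabp2 encodes the intestinal fatty acid binding protein, the classic marker of the absorptive enterocyte. The gene lies on the plus strand of chromosome 3 (GRCm38, chr3:122895072-122899506; ENSMUSG00000023057.5). With fish oil/pectin its levels ran from 338 CPM through a median of 535.5 to 936 CPM, and with corn oil/cellulose from 267 through 302 to 422 CPM. All 7 fish oil/pectin libraries stood above the corn oil/cellulose median and 4 of 7 above its highest library. Means were 533 ± 207 CPM with fish oil/pectin and 334 ± 57.9 CPM with corn oil/cellulose (SD, n = 7 and 9). The log2 fold change was 0.59 ± 0.18 (SE; 95% interval 0.22 to 0.97), with an adjusted p of 0.0142 in edgeR's quasi-likelihood test with Benjamini-Hochberg adjustment over all genes tested. In bulk RNA, fewer cells of a type and less RNA per cell cannot be told apart. Once each library's trend on exon length was removed, the log2 fold change of this short transcript (965 bases) was 0.33 with an adjusted p of 0.117 in the same edgeR test. The antisense gene 4933405D12Rik overlaps Fabp2, and the strand setting of the counting is not given, so reads of the 2 genes could have been divided in either way.

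Of the tested genes most like Fabp2 over the 16 libraries, by the root mean square difference of centred log2 CPM, Aldh1a1 was nearest at 0.15, followed by Fam162a at 0.18 and Guca2a at 0.19. Fabp2 itself had an SD of 0.47 on that scale. Aldh1a1 encodes a retinaldehyde dehydrogenase and Guca2a encodes guanylin, a peptide that regulates intestinal fluid secretion. RefSeq promoter windows (build GRCm38.p6) were matched for 6 of the 10 genes, and 2 are shown: Fabp2, as the most abundant of the binding proteins, and Slc27a4, as the most abundant of the transport proteins. Each is the stretch of 250 bases that ends just before the annotated start, on the plus strand, with motif matches in capitals.
Fabp2, chr3:122894822-122895071: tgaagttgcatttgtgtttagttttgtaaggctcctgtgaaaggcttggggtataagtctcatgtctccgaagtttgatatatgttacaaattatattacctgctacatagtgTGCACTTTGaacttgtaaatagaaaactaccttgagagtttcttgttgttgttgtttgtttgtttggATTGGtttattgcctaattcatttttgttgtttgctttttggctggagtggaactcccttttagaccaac
Slc27a4, chr2:29802384-29802633: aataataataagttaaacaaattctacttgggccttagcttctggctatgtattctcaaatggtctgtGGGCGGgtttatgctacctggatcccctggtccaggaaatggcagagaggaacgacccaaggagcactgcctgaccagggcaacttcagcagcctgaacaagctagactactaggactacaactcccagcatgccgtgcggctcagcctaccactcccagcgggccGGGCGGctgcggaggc
In the Fabp2 window the capitals mark, from the 5′ end, TGCACTTTG, a match on the minus strand to the HNF4-type element CAAAGTNCA that lies 137 to 129 bases before the start, and ATTGG, a minus-strand CCAAT at 70 to 66 bases before it. Hepatocyte nuclear factor 4 is a nuclear receptor of gut and liver epithelium. In the Slc27a4 window the capitals mark the GC box GGGCGG at 182 to 177 and at 16 to 11 bases before the start. The windows also differed in composition, with 35.6% G and C in Fabp2 and 54.4% in Slc27a4. Among 32851 RefSeq promoters of the same length, on both strands, 1.19% held CAAAGTNCA, 33.8% held CCAAT and 32.7% held GGGCGG. The nuclear receptor site AGGTCA, its direct repeat DR1 and the TATA box TATAAA were also looked for, and neither window held them. All these motifs were chosen with the sequences in view, the matches do not overlap one another, and a match is a description of letters only. Of the HNF4 genes, Hnf4a averaged 1119 ± 90.4 CPM with fish oil/pectin and 1112 ± 73.5 CPM with corn oil/cellulose (SD), and Hnf4g is described with the regulators further on.

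Fabp5, the epidermal fatty acid binding protein, which is made in many epithelia and in immune cells, showed the smallest adjusted p of the 8 tested genes. It lies at chr3:10012548-10016607 on the plus strand (ENSMUSG00000027533.10). Fish oil/pectin libraries ran from 3.85 CPM through a median of 5.71 to 7.93 CPM, and corn oil/cellulose libraries from 3.54 through 3.85 to 5.08 CPM. All 7 fish oil/pectin libraries were above the corn oil/cellulose median, and 5 of 7 above its highest library. The log2 fold change was 0.54 ± 0.14 (SE; 95% interval 0.25 to 0.82), with an adjusted p of 0.00475 in edgeR's quasi-likelihood test. Each library held only 67 to 136 counts with fish oil/pectin and 56 to 82 with corn oil/cellulose. Of the 50-base words in the gene's transcripts 5.48% also occur in other genes, mostly Gm6166, so a small share of its reads may be divided with that gene. Nearest to its pattern were Smim4 at 0.12, Rpl26 at 0.13 and Rpl27 at 0.13 (root mean square difference in log2 CPM over 16 libraries), where Fabp5 itself had an SD of 0.38. Rpl26 and Rpl27 encode ribosomal proteins of the large subunit.

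The counts of Fabp2 and Fabp5 kept a similar ratio in both diets. It was 89.9 ± 23.1 with fish oil/pectin and 85.6 ± 13.9 with corn oil/cellulose (SD, n = 7 and 9; counts of 2 genes of different length, given as a description). The ratio ranged from 51.2 to 120.0 over the fish oil/pectin libraries, the low end being the library with the highest Fabp5 level (replicate 6).

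Fabp4 and Cd36, the members best known from adipocytes, macrophages and capillary endothelium, were nearly undetected. Fabp4 (chr3:10204088-10208576, minus strand) had 0 counts over the 7 fish oil/pectin libraries, which allows a pooled level of up to 0.0252 CPM at 3 counts, and 1 count over the 9 corn oil/cellulose libraries. Cd36 (chr5:17781690-17888801, minus strand), the membrane fatty acid translocase, had 9 counts over the fish oil/pectin libraries and 13 over the corn oil/cellulose libraries, with at most 3 in any library. Pooled, that is 0.0757 CPM with fish oil/pectin (exact 95% Poisson interval 0.0346 to 0.144) and 0.0853 CPM with corn oil/cellulose (0.0454 to 0.146). The intervals cover counting error only, and no difference was detectable at this depth. Among markers of cells that make these proteins, the endothelial genes Cdh5 and Gpihbp1 and the adipocyte genes Plin1, Lep, Cfd and Retn were at 0 in every library, and the macrophage gene Cd163 was too. Summed over 10 markers each, the endothelial level was 5.11 to 10.2 CPM with fish oil/pectin and 5.90 to 8.12 CPM with corn oil/cellulose, and the macrophage level was 16.2 to 31.6 CPM with fish oil/pectin and 16.9 to 37.5 CPM with corn oil/cellulose. Adipocyte markers summed to 109 to 247 CPM with fish oil/pectin and 202 to 292 CPM with corn oil/cellulose, nearly all of it Pck1 (159 CPM on average with fish oil/pectin and 220.5 CPM with corn oil/cellulose), a gluconeogenic enzyme that epithelium also makes. By edgeR, 0 of 3 tested endothelial markers changed, 1 of 6 macrophage markers was lower, and of 4 adipocyte markers 1 was higher and 1 lower. Among all genes tested 41.7% were called in either direction. Fibroblast and muscle markers summed to 0.194 to 1.67 CPM with fish oil/pectin and 0.345 to 4.66 CPM with corn oil/cellulose, and 0 of 10 could be tested.

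Slc27a1, Slc27a2 and Slc27a4 encode fatty acid transport proteins, and 0 of these 3 passed the test of diet. Slc27a4 (FATP4; chr2:29802634-29817522, plus strand), the family member best known from intestinal epithelium, ranged from 104 CPM through a median of 156 to 204 CPM with fish oil/pectin and from 113 through 128 to 166 CPM with corn oil/cellulose. With fish oil/pectin 2 of 7 libraries, both GC-named, lay above every corn oil/cellulose library. The 2 fish oil/pectin libraries without the prefix lay below every one, so the spread was wider on both sides. The log2 fold change was 0.07 ± 0.10 (SE; 95% interval -0.15 to 0.29; edgeR adjusted p = 0.599).

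Slc27a1 (FATP1; chr8:71568882-71587302, plus strand), known as an insulin-responsive transporter of muscle and fat, ranged from 35.0 through 45.1 to 49.8 CPM with fish oil/pectin and from 36.2 through 51.0 to 53.3 CPM with corn oil/cellulose. Its log2 fold change was -0.10 ± 0.09 (95% interval -0.28 to 0.09; edgeR adjusted p = 0.385). Slc27a2 (FATP2; chr2:126552407-126588243, plus strand), an activator of very long-chain fatty acids best known from liver and kidney, was the least abundant of these transporters. It ranged from 6.82 through 10.5 to 14.8 CPM with fish oil/pectin and from 6.20 through 8.07 to 12.0 CPM with corn oil/cellulose, and 6 of 7 fish oil/pectin libraries stood above the corn oil/cellulose median. The log2 fold change of Slc27a2 was 0.30 ± 0.16 (95% interval -0.03 to 0.63; edgeR adjusted p = 0.128). It passed the threshold without fish oil/pectin replicate 7 (log2 0.38, edgeR adjusted p = 0.0474), without corn oil/cellulose replicate 5 (0.39, 0.0475) and with sex as a covariate (0.38, 0.0490). Of its 50-base words 9.8% recur in other genes, mostly in Gm26697, a noncoding gene on the opposite strand, so its counts are uncertain to that extent.

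Ratios of counts between transporters are given as a description, with no test. Slc27a4 had 3.55 ± 1.23 counts per count of Slc27a1 with fish oil/pectin and 2.90 ± 0.539 with corn oil/cellulose (SD, n = 7 and 9). In the GC-named libraries this ratio was 4.12 ± 0.951 with fish oil/pectin and 3.12 ± 0.526 with corn oil/cellulose (SD, n = 5 each), and without the prefix it averaged 2.15 with fish oil/pectin and 2.62 with corn oil/cellulose. Against Slc27a2, Slc27a4 had 15.5 ± 6.98 counts per count with fish oil/pectin and 16.5 ± 3.13 with corn oil/cellulose (SD, n = 7 and 9). In the GC-named libraries that ratio averaged 17.9 with fish oil/pectin and 17.4 with corn oil/cellulose, and without the prefix 9.72 with fish oil/pectin and 15.3 with corn oil/cellulose.

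Dgat1 and Dgat2 catalyse the same last step of triglyceride synthesis, although the 2 enzymes are unrelated in sequence. DGAT1 is the form linked to absorbed and recycled fatty acids in the gut, and DGAT2 the form linked to newly made ones. Dgat1 (chr15:76502015-76511953, minus strand) ranged from 46.3 CPM through a median of 76.8 to 88.9 CPM with fish oil/pectin and from 44.0 through 58.3 to 69.1 CPM with corn oil/cellulose. Here 5 of 7 fish oil/pectin libraries lay above every corn oil/cellulose library, and the other 2 lay among those without the prefix. Its log2 fold change was 0.19 ± 0.07 (SE; 95% interval 0.04 to 0.34; edgeR adjusted p = 0.0358).

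The Dgat1 call stood close to the threshold. It was lost in 11 of 16 fits that left out 1 library (fish oil/pectin replicates 4, 5, 6 and 7, corn oil/cellulose replicates 1, 2, 5, 6, 7, 8 and 9), with log2 fold changes of 0.15 to 0.24 over all 16. It was also lost without a term for the name form (log2 0.30, edgeR adjusted p = 0.102), with total count scaling (0.11, 0.133) and with sex as a covariate. Of the 15 settings other than leaving out 1 library, the call was lost in 8 and the direction reversed in 1. Genes nearest to Dgat1 over the 16 libraries were Hmg20b at 0.06, Eif1 at 0.08 and Stx4a at 0.09 (root mean square difference in log2 CPM), where Dgat1 itself had an SD of 0.32. Eif1 encodes a translation initiation factor and Stx4a a membrane fusion protein.

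Dgat2 (chr7:99153658-99182719, minus strand) ranged from 38.7 CPM through a median of 52.6 to 65.4 CPM with fish oil/pectin and from 40.0 through 47.3 to 57.8 CPM with corn oil/cellulose. Over all libraries the log2 fold change was 0.06 ± 0.10 (95% interval -0.14 to 0.27; edgeR adjusted p = 0.637). Counts of Dgat2 per count of Dgat1 were 0.737 ± 0.107 with fish oil/pectin and 0.846 ± 0.171 with corn oil/cellulose (SD, n = 7 and 9). Within the GC-named libraries the ratio was 0.708 with fish oil/pectin and 0.728 with corn oil/cellulose, and without the prefix it was 0.810 with fish oil/pectin and 0.993 with corn oil/cellulose.

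Mttp (chr3:138089854-138144968, minus strand), the lipid loader of chylomicron assembly, was the lowest of the tested genes in CPM per kilobase. It ranged from 3.21 CPM through 4.05 to 5.12 CPM with fish oil/pectin and from 3.02 through 4.65 to 7.04 CPM with corn oil/cellulose, with 54 to 95 counts per library with fish oil/pectin and 51 to 103 with corn oil/cellulose. The log2 fold change was -0.13 ± 0.16 (95% interval -0.45 to 0.20; edgeR adjusted p = 0.541). Trmt10a and Gm43691 overlap Mttp on the opposite strand, and 7.23% of its 50-base words recur in other genes, mostly Trmt10a, so its low counts are uncertain to that extent.

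The diet effect was also read within each of the 2 name forms. In the GC-named libraries (5 with each diet) Fabp2, Fabp5, Dgat1 and Dgat2 rose, 4 of 8 tested, where 45.0% of all genes tested were called. Log2 fold changes there were 0.87 ± 0.19 for Fabp2 (edgeR adjusted p = 0.00158), 0.76 ± 0.14 for Fabp5 (0.000377), 0.30 ± 0.07 for Dgat1 (0.00283) and 0.25 ± 0.09 for Dgat2 (0.0347), each ± SE. For Fabp5 all 5 GC-named fish oil/pectin libraries (5.37 to 7.93 CPM) lay above all 5 GC-named corn oil/cellulose libraries (3.54 to 5.08 CPM). Dgat1 separated likewise, with 73.6 to 88.9 CPM in the GC-named fish oil/pectin libraries and 58.3 to 69.1 CPM in the GC-named corn oil/cellulose libraries. For Fabp2, 4 of the 5 lay above. How many of all genes tested separate in this way within a name form was not counted.

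In the libraries without the prefix (2 fish oil/pectin, 4 corn oil/cellulose) the same effects were 0.03 ± 0.26 for Fabp2, 0.10 ± 0.20 for Fabp5 and -0.02 ± 0.10 for Dgat1 on the log2 scale, with edgeR adjusted p-values of 0.969, 0.836 and 0.922. Of all genes tested 0.00% were called there in the joint edgeR fit, although 2385 had an unadjusted p under 0.05 and limma voom called 1772. Of the 8 genes 0 were called and Dgat2 had an unadjusted p under 0.05 by edgeR, and limma voom called 0. On the log2 scale Slc27a1, Slc27a2, Slc27a4 and Mttp were at 0.02, 0.35, -0.25 and -0.41 without the prefix. In the GC-named libraries these genes were at -0.16, 0.28, 0.24 and 0.02. Dgat2 was at 38.7 and 38.8 CPM in the 2 fish oil/pectin libraries, below all 4 corn oil/cellulose libraries (45.7 to 50.4 CPM). Slc27a4 was placed likewise, with 104 CPM in each of the 2 fish oil/pectin libraries and 113 to 136 CPM in the 4 corn oil/cellulose libraries. The share of all genes placed so was not counted here either.

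Tested directly, the difference of the diet effect between name forms passed the threshold for 1 of the 8 genes, Dgat2, where 8.41% of all genes tested passed. The difference for Dgat2 was 0.56 ± 0.16 on the log2 scale (GC-named minus the rest; edgeR adjusted p = 0.0396), with a log2 fold change of -0.31 ± 0.13 without the prefix (edgeR adjusted p = 0.252). The call on the difference was lost in 10 of 16 fits that left out 1 library (fish oil/pectin replicates 1 and 2, corn oil/cellulose replicates 1, 2, 3, 4, 5, 6, 8 and 9; 0.50 to 0.64 over all 16) and with total count scaling (0.44, edgeR adjusted p = 0.0874). When the libraries without the prefix were fitted alone, Dgat2 was the 1 gene of the 8 called, at -0.30 ± 0.08 (edgeR adjusted p = 0.0468; 6.36% of all genes called), and when the GC-named libraries were fitted alone it did not pass (0.23, adjusted p = 0.106; 41.2% called). Fabp2, Fabp5, Slc27a4 and Dgat1 differed between the forms by 0.84, 0.66, 0.49 and 0.33, with edgeR adjusted p-values between 0.0960 and 0.114, so no difference was called for them. Each had an unadjusted edgeR p under 0.05 for the difference (0.0140 to 0.0189), as did 3622 of all 14321 genes tested.

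Other measures moved with the name form too. Colonocyte identity genes summed to 13598 to 16850 CPM in the GC-named fish oil/pectin libraries and 11697 to 14402 CPM in the GC-named corn oil/cellulose libraries, but to 10368 and 10727 CPM without the prefix with fish oil/pectin and 11124 to 12600 CPM with corn oil/cellulose. Over all libraries 7 of 8 tested T cell markers were lower with fish oil/pectin by edgeR, where 20.1% of all genes tested were called lower. T cell markers summed to 19.0 to 32.5 CPM in GC-named fish oil/pectin libraries and 43.1 to 87.9 CPM in GC-named corn oil/cellulose libraries. Without the prefix they summed to 14.7 to 17.5 CPM with fish oil/pectin and 12.5 to 18.5 CPM with corn oil/cellulose. The part of these markers, and of the handling behind the prefix, in the diet effects of the 10 genes was not tested.

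**Figure D2:**
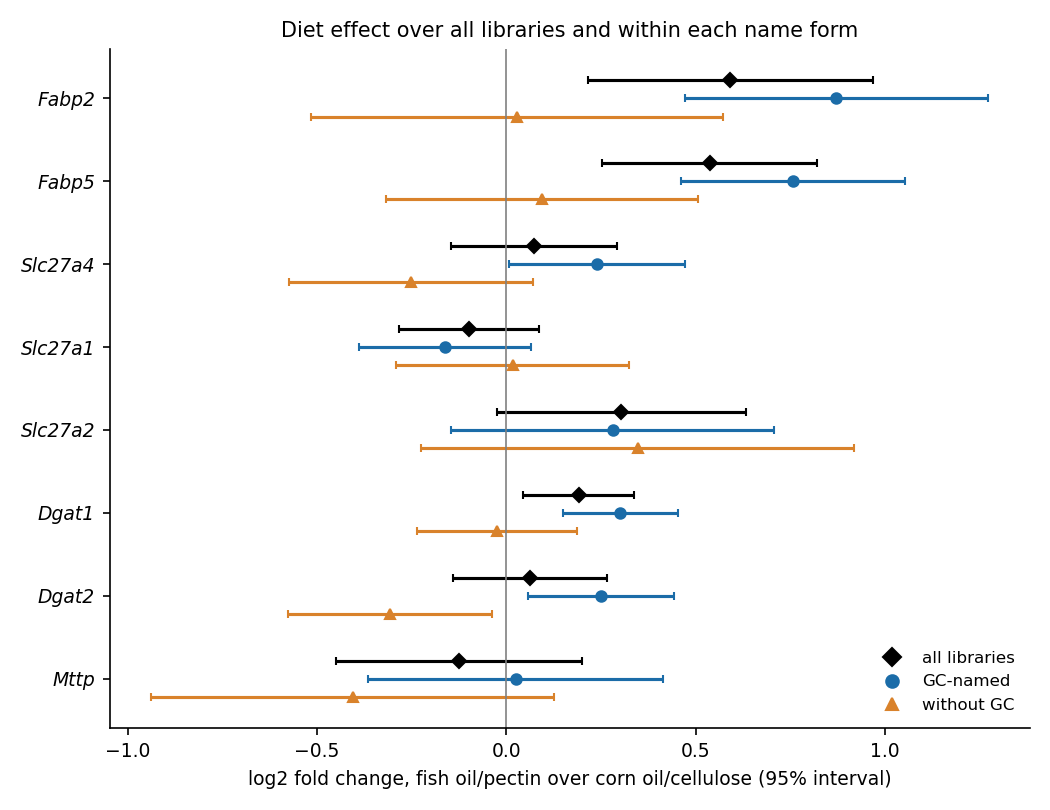
Log2 fold change, fish oil/pectin over corn oil/cellulose, with its 95% interval, for the 8 tested genes over all libraries (diamonds), within the GC-named libraries (circles, 5 with each diet) and within those without the prefix (triangles, 2 fish oil/pectin and 4 corn oil/cellulose). Intervals of Fabp2, Fabp5 and Dgat1 lie above 0 over all libraries, and those of Dgat2 lie on opposite sides of 0 in the 2 forms.

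**Figure D3:**
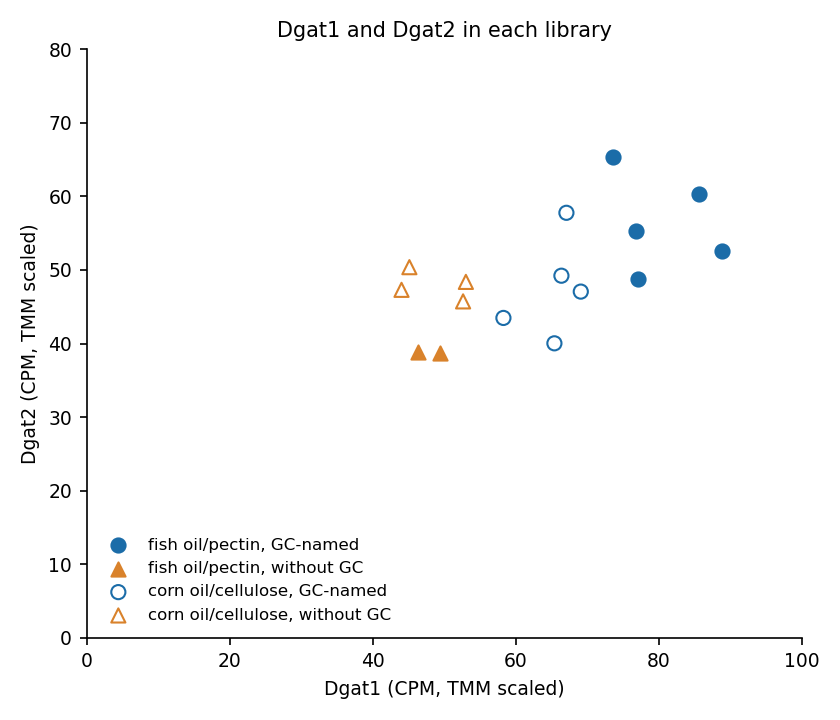
Dgat1 level against Dgat2 level in each library, both in CPM with TMM scaling on linear axes from 0; filled symbols are fish oil/pectin, open symbols corn oil/cellulose, circles GC-named libraries and triangles those without the prefix. The 5 GC-named fish oil/pectin libraries lie at the right, with Dgat1 at 73.6 CPM or more, and the 2 fish oil/pectin libraries without the prefix lie lowest, with Dgat2 at 38.7 and 38.8 CPM.

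Whether neighbouring genes of the same pathway moved was asked with 5 lists, read by counts alone. Among other fatty acid transport and binding genes, 10 of 19 were tested, 5 rose and 2 fell (70% called, against 41.7% of all genes tested), and the median log2 fold change was 0.21. Dbi, the acyl-CoA binding protein, averaged 489.8 ± 193 CPM with fish oil/pectin and 262 ± 40.1 CPM with corn oil/cellulose (SD; log2 0.76 ± 0.13 SE, edgeR adjusted p = 0.000598). Scarb1, a lipoprotein and lipid receptor, rose by 0.38 on the log2 scale, Got2, a mitochondrial aminotransferase also described as a membrane fatty acid binding protein, by 0.27, and Acbd6, another acyl-CoA binding protein, by 0.33. The acyl-CoA binding domain genes Acbd5 and Acbd3 fell by 0.20 and 0.16 on the log2 scale. Of the 9 genes too low to test, Fabp1, the liver FABP that the small intestine also makes, averaged 0.517 CPM with fish oil/pectin and 0.359 CPM with corn oil/cellulose.

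The largest change in that list was that of Fabp6, the ileal bile acid binding protein, a relative of Fabp2 whose main ligands are bile acids. It is the fifth called higher and was named after its values were seen. Its level was 108, 118, 265, 284, 646, 316 and 1764 CPM in fish oil/pectin replicates 1 to 7, and 40.3 to 144 CPM over the corn oil/cellulose libraries. The log2 fold change was 2.05 ± 0.48 (SE, edgeR adjusted p = 0.00446). Replicate 7 was the highest library for both Fabp6 and Fabp2, and the 2 fish oil/pectin libraries without the prefix were the lowest of their diet for both.

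Of the glycerolipid acyltransferases and lipins, the enzymes that build the precursor of triglyceride, 16 of 18 were tested, 4 rose and 3 fell (43.8% called), with a median log2 fold change of -0.03. Agpat5 and Agpat4, which add the second acyl chain of phosphatidic acid, each rose by 0.32 on the log2 scale, Gpd1, which makes glycerol phosphate, by 0.26, and Mogat2, the intestinal monoacylglycerol acyltransferase, by 0.55. Mogat2 averaged 5.86 ± 1.71 CPM with fish oil/pectin and 3.81 ± 0.909 CPM with corn oil/cellulose (SD). Gpam, the mitochondrial enzyme of the first acylation, fell by 0.46, Gk, glycerol kinase, by 0.46, and Lpin3, a phosphatidate phosphatase, by 0.22 on the log2 scale. Gpam averaged 23.9 ± 12.8 CPM with fish oil/pectin and 34.1 ± 7.74 CPM with corn oil/cellulose (SD), and its edgeR adjusted p was 0.0479, just inside the threshold. That of Gk was 0.0468.

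Of the genes of lipid droplets and chylomicron assembly, 18 of 25 were tested, 5 rose and 2 fell (38.9% called), with a median log2 fold change of 0.07. Sar1b, the small GTPase of the vesicles that carry prechylomicrons, rose by 0.28, Tm6sf2, a membrane protein of lipoprotein lipidation, by 0.46, P4hb, the disulphide isomerase that forms the microsomal triglyceride transfer complex with MTTP, by 0.34, and Plin3, a droplet coat protein, by 0.16 on the log2 scale. P4hb averaged 1162 ± 172 CPM with fish oil/pectin and 912 ± 64.6 CPM with corn oil/cellulose (SD; edgeR adjusted p = 0.00321), while its partner Mttp did not pass. Apob, the apolipoprotein that MTTP lipidates, fell by 0.49 on the log2 scale, with 122 ± 25.8 CPM with fish oil/pectin and 180.0 ± 46.7 CPM with corn oil/cellulose (SD; edgeR adjusted p = 0.0144). Mia2, an export factor of large cargo from the endoplasmic reticulum, fell by 0.11. Apoa4, Apoc2 and Apoc3, further apolipoproteins of chylomicrons, were too low to test, and Apoa1 averaged 0.463 CPM with fish oil/pectin and 0.477 CPM with corn oil/cellulose. Plin2, another droplet coat protein, averaged 129.6 ± 34.1 CPM with fish oil/pectin and 131 ± 19.2 CPM with corn oil/cellulose (SD; edgeR adjusted p = 0.506). These apolipoproteins, Plin2, Fabp1 and Hnf4a lie outside the rule for naming genes and were named after their values were seen.

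Of the genes of triglyceride breakdown, 9 of 12 were tested and none passed by edgeR's quasi-likelihood test (0 at an unadjusted p under 0.05, and 0 by DESeq2 and by limma voom). Their median log2 fold change was 0.01. Pnpla2, the adipose triglyceride lipase, named after its values were seen, averaged 189.8 ± 32.8 CPM with fish oil/pectin and 180.2 ± 17.6 CPM with corn oil/cellulose (SD).

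Of the lipid-sensing transcription factors and coactivators all 14 were tested, and 5 fell (35.7% called), with a median log2 fold change of -0.05. None rose (0 by edgeR, DESeq2 and limma voom, 1 at an unadjusted p under 0.05). Ppara, the nuclear receptor that senses fatty acids, averaged 13.3 ± 4.31 CPM with fish oil/pectin and 24.0 ± 5.21 CPM with corn oil/cellulose (SD; log2 -0.79 ± 0.14 SE, edgeR adjusted p = 0.000709). Its coactivators Ppargc1a and Ppargc1b fell by 0.76 and 0.35 on the log2 scale, and Hnf4g, a relative of Hnf4a, fell by 0.56. Hnf4g averaged 24.2 ± 10.8 CPM with fish oil/pectin and 37.2 ± 7.10 CPM with corn oil/cellulose (SD). Ppard was the fifth that fell, by 0.21, and was named after its values were seen. The changes in the lists did not all hold in both name forms. On the log2 scale Agpat4 was at 0.50 in the GC-named libraries and -0.03 without the prefix, and Gpam at -0.72 and -0.03. Scarb1 was at 0.35 and 0.42, and Ppara at -0.86 and -0.66. These examples were picked after their values were seen, and the cause was not tested.

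**Figure D4:**
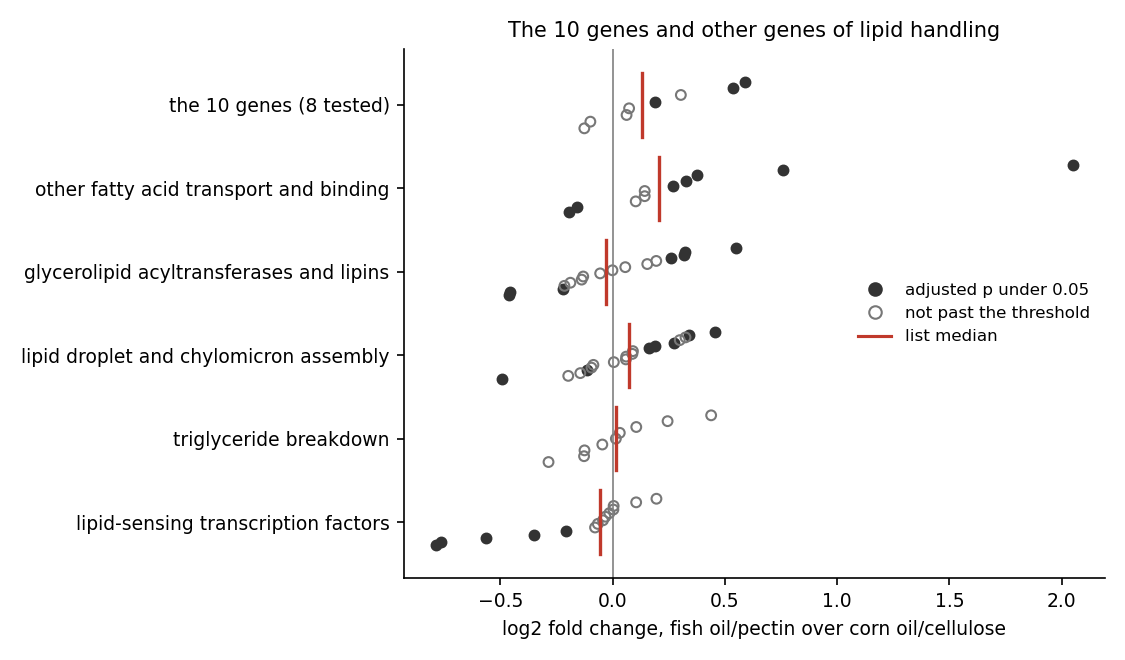
Log2 fold change, fish oil/pectin over corn oil/cellulose, of each tested gene of the 10 described here (8 tested) and of 5 further lists of lipid handling genes; filled points have an adjusted p under 0.05, open points do not, and each red line is a list's median. The medians lie between -0.05 and 0.21, and the point farthest right is Fabp6 at 2.05.

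Markers of the small-intestinal enterocyte, 10 genes with Fabp1 and Apoa4 among them, were measured as those of another epithelium of the gut. They summed to 257 to 357 CPM with fish oil/pectin and 258 to 358 CPM with corn oil/cellulose (medians 313 CPM with fish oil/pectin and 308 CPM with corn oil/cellulose). Most of each sum was the glucose transporter Slc5a1, which averaged 247.8 CPM with fish oil/pectin and 256.1 CPM with corn oil/cellulose. Of 6 tested markers 1 was lower and 0 were higher by edgeR, where 20.1% of all genes tested were called lower and 21.7% higher. The lower one was Sis, sucrase-isomaltase, with 3.90 ± 1.72 CPM with fish oil/pectin and 9.26 ± 2.58 CPM with corn oil/cellulose (SD, n = 7 and 9; log2 fold change -1.39 ± 0.23, edgeR adjusted p = 0.000562). Apoa4 had at most 3 counts in any library. Fabp2 was not among these markers.

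Across 31 other settings of the fit Fabp2 passed in 26, Fabp5 in 28 and Dgat1 in 11. Fabp2 and Fabp5 had a log2 fold change above 0 in all 31, from 0.04 to 0.84 and from 0.11 to 0.73. Neither passed in the 7 fish oil/pectin and 4 corn oil/cellulose libraries whose names hold the lower series of numbers, the set in which all fish oil/pectin libraries fall (log2 0.39 and 0.40, edgeR adjusted p = 0.247 and 0.117). Fabp2 also missed the threshold with no filter on low counts, which brings more genes into the adjustment (log2 0.59, edgeR adjusted p = 0.0526).

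**Figure D5:**
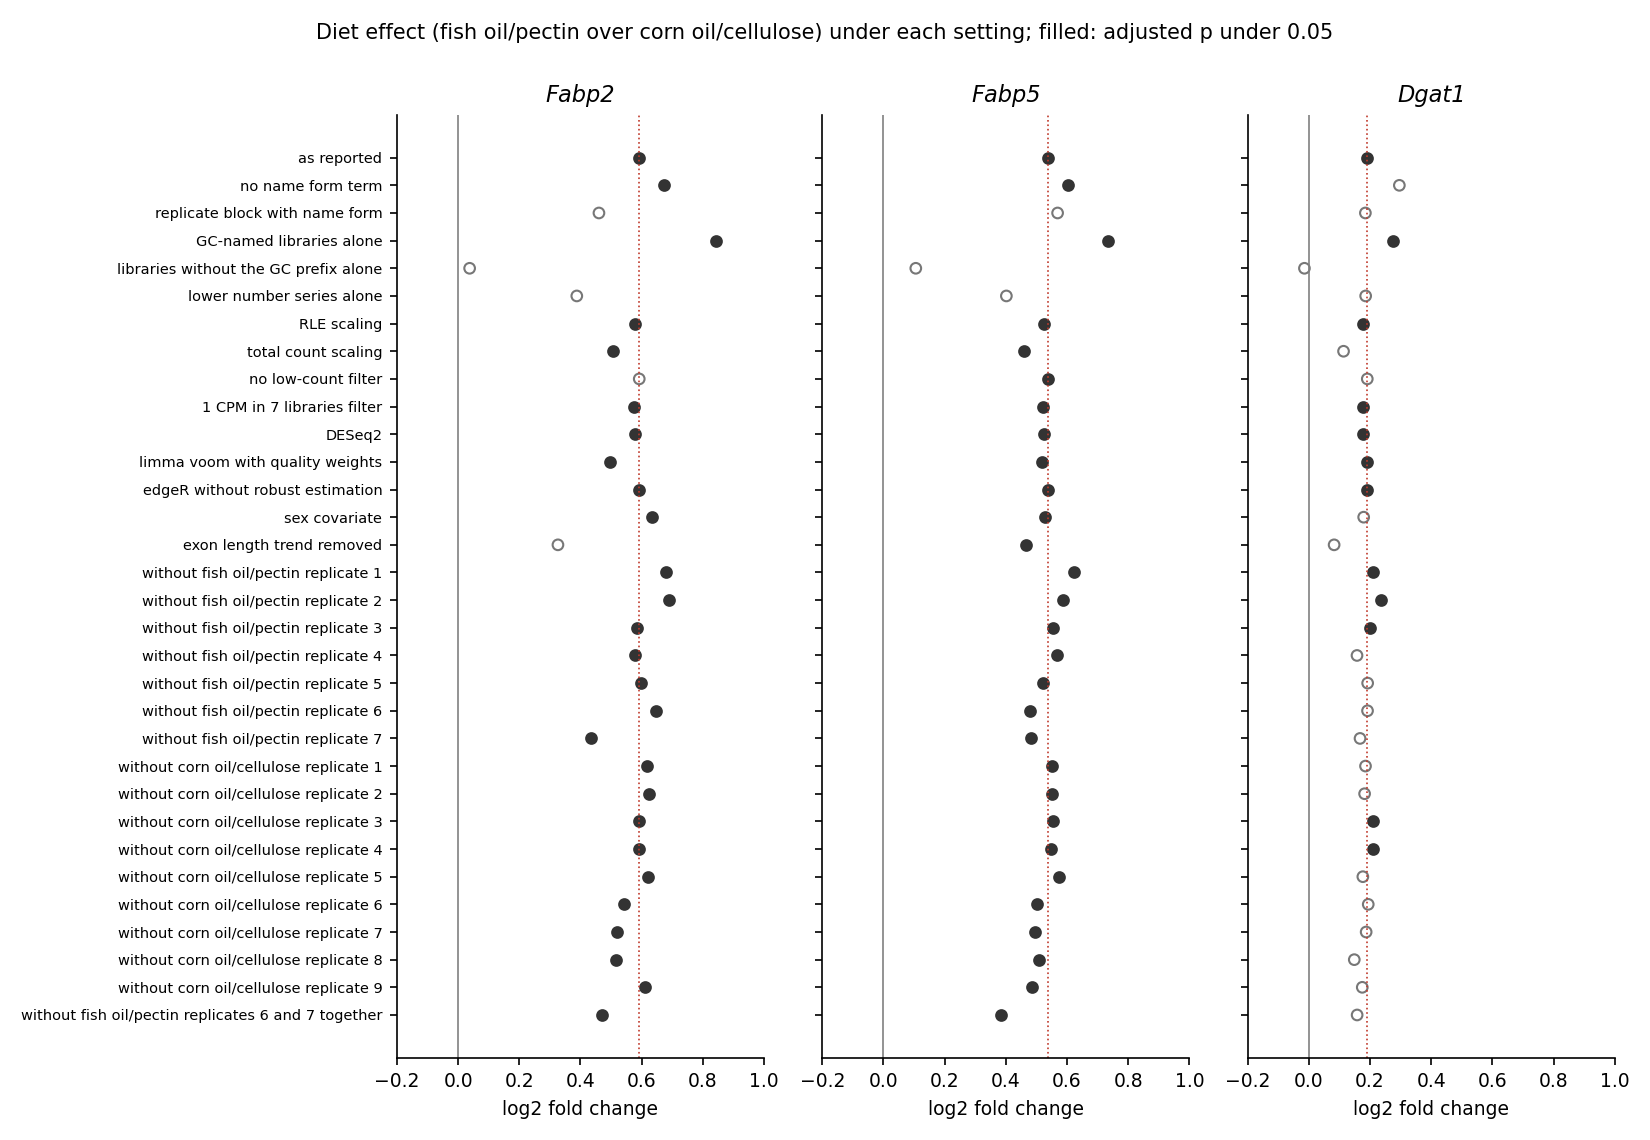
Log2 fold change, fish oil/pectin over corn oil/cellulose, of Fabp2, Fabp5 and Dgat1 as reported (top, with its value as a dotted line) and under 31 other settings, 1 per line; filled points have an adjusted p under 0.05. Fabp2 keeps values from 0.43 to 0.69 when 1 library is left out, and all 3 genes are nearest 0 in the libraries without the GC prefix.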

How the data were processed

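RNA-seq was done on 16 colonocyte libraries (7 fish oil/pectin, 9 corn oil/cellulose), made per the labels' protocols from 200 ng of total RNA with a stranded poly(A) kit. The authors deposited raw read counts per gene symbol, with no normalisation. STAR 2.6.0a, HTSeq 0.11.1 and build GRCm38 were used, per the submitters' processing notes. Strand setting and annotation release: not given in the sources used here. The table held 0 unused columns and 0 lines that name no gene. Coordinates and lengths come from GENCODE M21, with 98.8% of symbols matched.

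Counts were fitted with edgeR 4.0.16 in R 4.3.3 (TMM scaling, filterByExpr, robust quasi-likelihood test with terms for diet and name form) over 14321 genes, which held 99.9% of counts, and p-values were adjusted by Benjamini-Hochberg with a threshold of 0.05. Log2 fold changes are adjusted for the name form, mean CPM are not. A joint fit with an interaction gave the effect within each form and its difference. Fits were tested on counts simulated without a difference between name forms. That test cannot show how the fits handle effects that differ between the forms. Libraries of one diet differed beyond sampling noise in all 57 pairs (chi-square per degree of freedom 8.20 to 141). Same-numbered libraries of the 2 diets were not paired: 1 of 7 fish oil/pectin libraries resembled its own number best.

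The genes and lists were chosen with earlier results of these data known, so no list was tested as a set. The text names all 10 genes, up to 4 called genes with the lowest p in each direction of a list, and the 3 tested genes nearest in pattern to each called gene (mean log2 CPM of at least 1, predicted genes and pseudogenes left out). Alternatives were other scalings and filters, DESeq2 1.42.0, limma 3.58.1 voom with quality weights, no robust estimation, no name form term, a replicate block, each name form alone, the lower number series alone, sex as a covariate (over 100 Y-linked counts taken as male), removal of the trend on exon length (loess, span 0.3) and leaving out each library. Leaving out fish oil/pectin replicates 6 and 7 together, the highest in Fabp5, was added after the data were examined. Intervals on counts cover counting error only.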

Additional observations from a re-analysis of the deposited data

Results flagged for a closer look

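In 16 groups of libraries (8 tested genes, 2 diets) the highest and lowest library were compared with the rest of their group, and chance picks about 1 in 20 groups. In 3 groups 1 library stood apart. Fabp2 reached 936 CPM in fish oil/pectin replicate 7, a gap of 0.574 of the diet's range against a limit of 0.568. Without that library the log2 fold change of Fabp2 was 0.43 and still passed (edgeR adjusted p = 0.0193). Fabp5 reached 5.08 CPM in corn oil/cellulose replicate 5, a gap of 0.741 of the range against a limit of 0.493. Without that library the log2 fold change of Fabp5 was 0.57 (edgeR adjusted p = 0.00537). Mttp reached 7.04 CPM in corn oil/cellulose replicate 4, a gap of 0.571 against 0.493. Mttp did not pass over all libraries (log2 fold change -0.13, edgeR adjusted p = 0.541), nor without that one (-0.05, 0.783), and its values ran from -0.21 to -0.05 when 1 library was left out. Dgat2 drew attention because its diet effect differed between the name forms, by 0.56 on the log2 scale (edgeR adjusted p = 0.0396 for the difference).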

How the results depend on the processing

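The number of genes called was 5979 over all libraries and 5078 to 6065 when 1 library was left out, with 2 or 3 of the 10 genes higher. It was 3494 with the replicate block, 2250 in the lower number series alone and 900 in the unprefixed libraries alone, and in each of these 3 settings 0 of the 10 genes were called higher. The GC-named libraries alone called 5663 genes, with 3 of the 10 higher. The replicate numbers do not pair libraries, and the cause of the lower counts was not tested. Of the 10 genes 1 was called higher with no low-count filter (Fabp5), which tests more genes, and 1 with the exon length trend removed (Fabp5), and 1 was called lower (Dgat2) in the unprefixed libraries alone. The length trend was taken on all annotated exons, 3567 bases for Fabp5, whose principal transcript has 987. How the Fabp5 call stands with the shorter length was not tested. Total count scaling gave 2247 genes higher and 3779 lower, against 3103 and 2876 with TMM, and moved the median of all genes to -0.08. With the replicate block Fabp2 was at 0.46 and Fabp5 at 0.57 on the log2 scale (edgeR adjusted p = 0.176 and 0.0572). Where the count of 3 genes higher stood with sex as a covariate, without fish oil/pectin replicate 7 and without corn oil/cellulose replicate 5, Slc27a2 had taken the place of Dgat1. When 1 library was left out, 1 to 4 glycerolipid acyltransferase and lipin genes were called lower, and 4 were called higher. For lipid droplets and chylomicrons it was 1 to 2 lower and 4 to 6 higher. For other fatty acid transport and binding it was 1 to 2 lower and 5 to 6 higher.

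Direction changed only for genes that did not pass over all libraries, apart from Dgat1, which was at -0.014 in the unprefixed libraries alone. In those libraries Slc27a1 was at 0.027, Slc27a4 at -0.24 and Dgat2 at -0.30. Slc27a4 was at -0.0092 with the replicate block, -0.0008 in the lower number series and -0.0033 with total count scaling. Dgat2 was at -0.076 with the replicate block, -0.0069 in the lower number series, -0.013 with total count scaling and -0.044 with the length trend removed. Mttp was at 0.0012 in the GC-named libraries alone. The cause was not tested in any of these. The difference of the Slc27a2 effect between name forms changed sign on leaving out 1 library (-0.23 to 0.091).

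Genes whose diet effect differed between the forms numbered 1204, but 725 with no low-count filter, 2122 by limma voom, and 6 to 1763 when 1 library was left out, with 6 without fish oil/pectin replicate 2, 261 without fish oil/pectin replicate 1 and 350 without corn oil/cellulose replicate 3. Without the first 2 of these a single fish oil/pectin library stands for its form, assumed to vary like the rest. Of the 10 genes 0 to 2 differed when 1 library was left out, 0 with total count scaling, and 2 without fish oil/pectin replicates 6 and 7 together, which also left 2 genes higher. Depth limits Cd36 and Fabp4, with at most 3 counts a library.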
